A study of Mus musculus with 20 samples.

Results

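The 9 genes described here encode proteins of the myelin sheath and of the mature oligodendrocytes that make it: *Mbp*, *Mobp*, *Mog*, *Mag*, *Cnp*, *Mal*, *Cldn11*, *Opalin* and *Ermn*. They were picked by name, as textbook genes of the mature oligodendrocyte, and all 9 were found among the 25239 genes of the count table. Their mRNA was measured by RNA-seq in tissue blocks of the preoptic area (POA) from 20 male mice, which fell into 4 groups of 5. Control SS and control OS mice carried no mutation named in the labels, and were bred from heterozygous dnFGFR siblings to match the genetic background. dnFGFR SS and dnFGFR OS mice came from pairs homozygous for a transgene that encodes a truncated FGF receptor 1 without its kinase domain, placed under a rat GnRH promoter, so that it is meant to act in GnRH neurons and not in glia. Mice were paired at postnatal day (PND) 20 with a male (same sex, SS) or a female (opposite sex, OS), OS pairs bred and raised pups, and tissue was taken from all groups at PND320, after 300 days. No mouse was singly housed, and fatherhood and mating come together with OS housing.

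Oligodendrocytes wrap axons of the central nervous system in myelin, a stack of compacted membrane rich in cholesterol and galactolipids that speeds conduction and feeds the axon. The genes of this program are switched on together when a precursor cell differentiates, under transcription factors such as OLIG2, SOX10 and MYRF, and remain on in adult white matter. The POA is a grey matter region crossed by and bordered by fibre tracts, including the anterior commissure, the optic chiasm and the internal capsule near the lateral edge of the dissected block.

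Because the 9 mRNAs rose and fell together from mouse to mouse, as shown further on, the sequence before the start of transcription is given for 4 of them. RefSeq promoters (GRCm38.p6) were at hand for 8 of the 9 genes. In the 250 bases before the start, read on both strands, the letters CTGGCAC or CTGGTAC, to which MYRF is known to bind, were present in 3 of the 8 (*Mog*, *Mag* and *Cnp*), beside 5.93% of 32841 promoters. The letters ACAAAG, the core known for SOX factors, were present in 4 of the 8 (*Mobp*, *Mag*, *Cnp* and *Opalin*), beside 16.5% of promoters. The genes were counted as holding a motif at any of their starts, of which *Mag* has 3 and 1 without either motif, whereas the 32841 promoters were counted start by start, so the shares have different units. *Mobp* held them 6 times, all on the strand opposite to the gene, and it was the only one of the 32841 promoters with at least 6. The letters of the motifs could overlap, but no matches did in the 8 promoters, and both motifs were chosen after the values of the 9 genes were known. The stretches below run 5′ to 3′ along the gene and end before its first transcribed base. Capitals mark CTGGCAC, or GTACCAG as the reverse complement of CTGGTAC, in *Mog* (chr17:37023399-37023558, minus strand), *Mag* (chr7:30914923-30915082, minus strand) and *Cnp* (chr11:100574744-100574903, plus strand). In *Mobp* (chr9:120149494-120149653, plus strand) they mark CTTTGT, the reverse complement of ACAAAG. A match of letters is a description and no measure of binding.
Mog: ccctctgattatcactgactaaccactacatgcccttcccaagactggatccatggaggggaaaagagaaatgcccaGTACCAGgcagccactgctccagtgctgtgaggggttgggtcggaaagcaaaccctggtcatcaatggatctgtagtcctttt
Mag: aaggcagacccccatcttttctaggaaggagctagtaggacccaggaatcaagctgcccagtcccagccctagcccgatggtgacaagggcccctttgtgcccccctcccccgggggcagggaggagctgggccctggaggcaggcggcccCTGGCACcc
Cnp: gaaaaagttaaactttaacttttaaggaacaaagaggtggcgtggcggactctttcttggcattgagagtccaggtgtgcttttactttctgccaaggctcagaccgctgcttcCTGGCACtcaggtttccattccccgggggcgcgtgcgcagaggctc
Mobp: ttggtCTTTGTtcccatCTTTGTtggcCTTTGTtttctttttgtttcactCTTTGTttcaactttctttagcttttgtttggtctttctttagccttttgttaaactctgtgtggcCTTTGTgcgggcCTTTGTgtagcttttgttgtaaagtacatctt

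The *Mog* stretch lies directly before the gene, which spans chr17:37010740-37023398, and the *Mag* stretch lies directly before chr7:30899175-30914922. In *Mag* the 7 letters stand at bases -9 to -3 before the most upstream start, and in *Mog* at -83 to -77. In *Cnp* (chr11:100574909-100591875) they stand at -81 to -75, counted from a RefSeq start that lies inside this span and not at its first base, and the 6 copies of CTTTGT of *Mobp* (chr9:120149742-120181488) are spread from -243 to -115. None of the 4 stretches lies in a gene of the RefSeq annotation. *Cnp* shares 154 exon bases with the neighbouring gene *Dnajc7*, so reads there cannot be assigned to one of the 2 genes. No shared exon bases with overlapping RefSeq genes were found for the other 8 genes.

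Counted reads ranged from 32353578 to 39871353 per mouse, and every member had counts in every mouse, with a lowest value of 819 counts for *Opalin*. Levels are given as CPM, counts relative to the library size after TMM scaling. Among markers of peripheral myelin, *Prx*, the periaxin of Schwann cells, was at 1.65 CPM on average, and *Pmp2*, also of Schwann cells, at 0.0188 CPM with no count in some mice. *Pmp22*, the most abundant of these markers and not restricted to Schwann cells, was at 30.7 CPM. One library stood apart in the whole table. dnFGFR OS replicate 5 had reads on 18416 genes against 19101 to 19659 in the other mice, and values that rest on it are given with and without it. The tissue was a block of brain, so fewer oligodendrocytes and less RNA in each cannot be told apart in what follows. Genotype and date of collection cannot be told apart, because every control mouse was killed in June or July, while May was the month for 9 dnFGFR mice and November for the other, replicate 4 of the SS group.

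Divided by gene length, to allow comparison between genes, *Mbp*, the basic protein that holds the inner faces of the myelin membrane together, was the most abundant of the 9 at 290.4 ± 51.9 CPM per kb (SD, n = 20 mice). It ranked 6 among 25239 genes by CPM and 76 among 24715 genes per kb. *Cnp* (119 ± 11.7) and *Mobp* (119 ± 22.1) followed and did not differ beyond their spread, as *Cnp* was the higher one in 12 of 20 mice. *Cldn11* (101 ± 10.6) came next and was below *Mobp* in 18 of 20 mice. It stood above *Mal* (96.2 ± 13.9) in 14 of 20 mice, which is within their spread. *Mag* (50.2 ± 7.00) and *Mog* (47.5 ± 4.91) had similar levels, in this order in 14 of 20 mice. *Ermn* (29.9 ± 4.10) and *Opalin* (11.8 ± 2.27) were lowest, each below its neighbour in 20 of 20 mice.

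*Mbp* and *Mobp* encode the basic proteins of compact myelin. *Mbp* was at 2136, 2819, 2382, 2637 and 2854 CPM in control SS replicates 1 to 5, and at 2879, 3447, 2568, 2678 and 2368 CPM in control OS mice. It was at 2013, 2513, 2711, 1673 and 2691 CPM in dnFGFR SS mice, and at 2369.6, 1761, 2526, 2472 and 1691 CPM in dnFGFR OS mice. The 3 lowest mice were dnFGFR mice (SS replicate 4, OS replicates 2 and 5), the highest was control OS replicate 2, and all pairs of groups overlapped. *Mobp* was at 631, 808, 774.4, 774.2 and 847 CPM in control SS mice and at 968, 1158, 881, 842 and 734 CPM in control OS mice. In dnFGFR SS mice it was at 666, 841, 889.7, 474 and 823 CPM, and in dnFGFR OS mice at 909.7, 579.6, 996, 825 and 849 CPM. dnFGFR SS replicate 4 and dnFGFR OS replicate 2 were again the lowest, and dnFGFR OS replicate 5, among the lowest for *Mbp*, was in the middle of its group for *Mobp*.

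*Mal*, a tetraspan proteolipid that sorts membrane into myelin, and *Cldn11*, the claudin of the tight junctions between its layers, are integral membrane proteins. *Mal* was at 234, 255, 260.3, 273 and 250.2 CPM in control SS mice and at 269, 306, 291, 301 and 265 CPM in control OS mice. The control groups overlapped by the highest SS mouse alone, which lay above 2 of the OS mice. *Mal* was at 219.9, 246, 278, 194 and 259 CPM in dnFGFR SS mice and at 333, 209, 349.9, 258 and 292 CPM in dnFGFR OS mice, where the OS mice held both the highest values of all and the second lowest. *Cldn11* had means between 186 ± 27.3 CPM in dnFGFR SS mice and 194 ± 17.3 CPM in control OS mice (SD, n = 5), with single mice between 148 and 215 CPM. Its spread was smaller in control SS mice (SD 8.54 CPM) than in the other groups.

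*Mog* and *Mag* lie on the outer and the inner (axonal) face of the sheath, and *Mag* is the adhesion protein that meets the axon. *Mog* was at 82.6, 81.6, 85.1, 91.8 and 88.8 CPM in control SS mice and at 84.2, 89.1, 85.9, 81.9 and 80.3 CPM in control OS mice. It was at 64.9, 80.4, 84.3, 63.4 and 81.0 CPM in dnFGFR SS mice and at 80.0, 63.1, 89.7, 75.9 and 86.1 CPM in dnFGFR OS mice. The 10 control mice lay close together, between 80.3 and 91.8 CPM, and 5 dnFGFR mice lay below all of them, 1 of these by less than 1 CPM. *Mag* was at 228, 221, 197, 237 and 234 CPM in control SS mice, and at 231, 245, 221, 204 and 185 CPM in control OS mice. It was at 165, 204, 223, 164 and 231 CPM in dnFGFR SS mice, and at 181, 144, 200.3, 203 and 170.4 CPM in dnFGFR OS mice. The highest dnFGFR OS mouse lay below 4 of the 5 control OS mice, and the groups overlapped through control OS replicate 5.

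*Cnp*, a phosphodiesterase of the cytoplasm-filled channels of the sheath, was at 426, 434, 439, 485 and 458 CPM in control SS mice and at 419, 496, 529, 445 and 418 CPM in control OS mice. It was at 381, 407, 427, 374 and 457 CPM in dnFGFR SS mice and at 422, 343, 464, 422 and 451 CPM in dnFGFR OS mice. It had the smallest spread of the 9 within groups, and its lowest 4 mice were dnFGFR mice. *Opalin*, a transmembrane glycoprotein of central myelin, was at 35.7, 40.7, 43.0, 41.5 and 39.4 CPM in control SS mice and at 31.8, 42.4, 37.7, 35.8 and 33.3 CPM in control OS mice. It was at 24.9, 29.7, 27.9, 26.6 and 41.6 CPM in dnFGFR SS mice and at 28.1, 22.4, 35.1, 33.7 and 45.5 CPM in dnFGFR OS mice. In SS mice 4 of 5 dnFGFR mice lay below all control mice, and the other, replicate 5, lay above 4 of the 5. *Ermn*, a cytoskeletal protein of the oligodendrocyte, had means between 102 ± 5.31 CPM in dnFGFR SS mice and 116 ± 24.7 CPM in dnFGFR OS mice (SD, n = 5), and in the last group both the lowest (76.7 CPM, replicate 2) and the highest (140.1 CPM, replicate 5) of all mice.

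**Figure D1:**
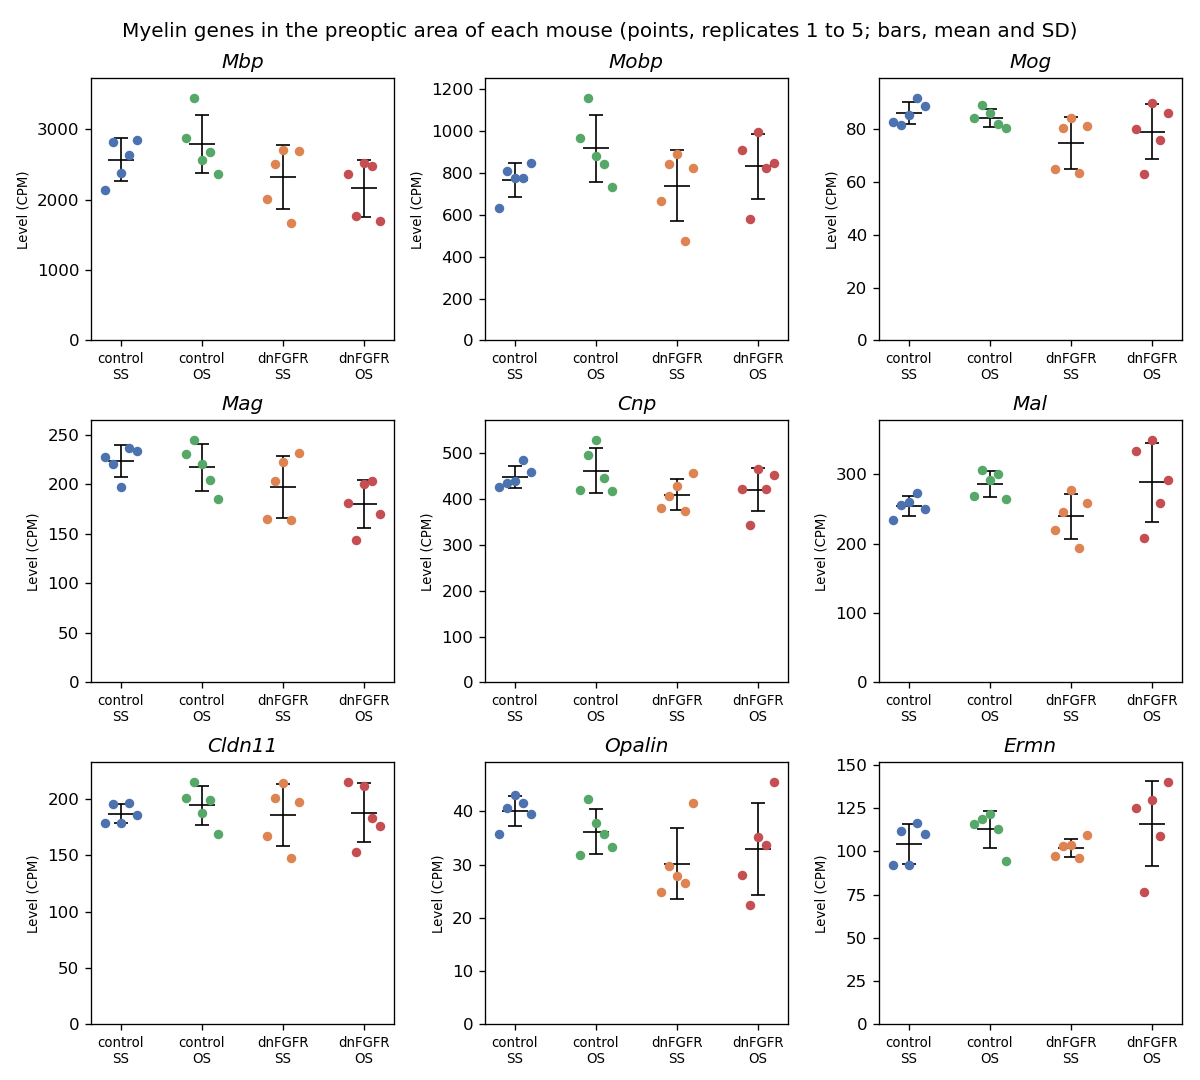
Level of each gene (y axis, CPM from 0) in each mouse of the 4 groups (x axis; points are replicates 1 to 5 from left to right, bars show mean and SD, n = 5). All groups overlap for all 9 genes, and dnFGFR SS replicate 4 and dnFGFR OS replicate 2 are at or near the bottom of their groups, for example at 474 and 579.6 CPM for *Mobp*.

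Whether OS housing changed these genes was asked first in control mice. *Mobp* (774.4 against 881 CPM, medians of SS and OS mice) and *Mal* (255 against 291 CPM) had the largest differences, both toward OS mice. Their fitted log2 changes were 0.26 ± 0.10 and 0.17 ± 0.056 (SE, n = 5 against 5). Neither passed edgeR's quasi-likelihood test with Benjamini-Hochberg adjustment over all genes (adjusted p = 0.600 and 0.467). None of the 9 genes had an adjusted p under 0.1, the threshold used throughout, beside 0.124% of 17004 genes tested. DESeq2 also called none of the 9. At an unadjusted p under 0.05 there were 2 of 9 (*Mobp* and *Mal*), beside 7.2% of all genes, and 0 of 9 with the 4 groups in 1 fit. No member had groups without overlap, beside 0.853% of genes higher and 0.759% lower in OS mice. The markers of choroid plexus and ependyma also had higher values in OS mice, with a median of 1.35 and 9 of 9 above 0, 2 of them at an unadjusted p under 0.05. Of these, *Clic6* passed with edgeR without control OS replicate 5 (adjusted p = 0.0411). Among endothelial markers *Cldn5* had a value of -0.46 (edgeR adjusted p = 0.104), and passed under 7 of 11 other settings. The part of these cells in the values of *Mobp* and *Mal* was not tested. The median change of the 9 was 0.054, with 6 above 0 and 3 below, beside a median of 0.0021 over all genes. *Mog* (-0.031), *Mag* (-0.042) and *Opalin* (-0.15) were the 3 below 0. Among mice collected on dates with both housings (2 SS and 5 OS mice), none of the 9 had an unadjusted p under 0.05 and *Mog* and *Mag* had values just above 0 (0.011 and 0.031). The 95% interval for *Mbp* ran from -0.088 to 0.33.

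In dnFGFR mice the same question gave *Mal* the largest value, with a log2 change of 0.27 ± 0.14 (SE, n = 5 against 5, interval -0.025 to 0.57, edgeR adjusted p = 0.729). *Ermn* followed with 0.19 ± 0.13, and *Mag* had the lowest value with -0.13 ± 0.12. None of the 9 genes passed the threshold, as none of 16944 genes did (0%), and none passed with DESeq2 either. At an unadjusted p under 0.05 there were 0 of 9 members beside 6.72% of all genes, and 2 of 9 without dnFGFR OS replicate 2 (*Mal* and *Ermn*) or with limma voom. No member had groups without overlap, beside 0.726% of genes higher and 0.696% lower in OS mice. The median of the 9 was 0.080, with 7 above 0, beside 0.0037 over all genes. *Opalin* rested on a single mouse: its value of 0.13 was -0.014 without dnFGFR OS replicate 5. The change of *Mbp* (-0.098) was -0.021 without that mouse. For *Ermn* the value of 0.19 was 0.11 without it and 0.31 without dnFGFR OS replicate 2. The median of the 9 ranged from 0.025 without dnFGFR SS replicate 4 to 0.16 without dnFGFR OS replicate 2, the mice with the lowest levels in each group. Among mice of collection dates that held both housings it was 0.17.

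Between genotypes in SS mice all 9 genes had values below 0 in dnFGFR mice. *Opalin* had the largest difference, at 30.1 ± 6.64 CPM in dnFGFR SS against 40.05 ± 2.77 CPM in control SS mice (SD, n = 5), a log2 change of -0.41 ± 0.11 (SE) with an interval from -0.66 to -0.17. Its unadjusted p was 0.00273 and it did not pass after adjustment over all genes (edgeR adjusted p = 0.262). *Mog* (-0.20 ± 0.080, SE) and *Cnp* (-0.13 ± 0.062, SE) had smaller values and adjusted p of 0.468 and 0.575 with edgeR. None of the 9 passed the threshold, beside 0.2% of 16992 genes. Without overlap between groups there were 0 of 9, beside 0.777% of genes lower and 0.794% higher in dnFGFR mice. At an unadjusted p under 0.05 and lower there were 3 of 9 members (*Opalin*, *Mog* and *Cnp*) and 0 higher, beside 4.51% of all genes lower, 4.12% higher and 8.63% in either direction. The median of the 9 was -0.13, beside 0.0042 over all genes.

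The *Opalin* call depended on the tool and on one mouse. DESeq2 gave the same change (-0.41) and an adjusted p of 0.0423, so 1 of 9 members passed there, where DESeq2 called 223 genes in all against 34 with edgeR. With edgeR and without dnFGFR SS replicate 5, the one dnFGFR SS mouse at a control level, the change of *Opalin* was -0.56 with an adjusted p of 0.00853. The median of the 9 was -0.18 without that mouse and -0.050 without dnFGFR SS replicate 4. Without dnFGFR SS replicate 4, *Mobp* (0.067) and *Cldn11* (0.059) stood above 0. Markers of other cell types were read beside these values, and none passed with edgeR in the design used throughout. *Rgs5*, of the endothelial and mural markers, passed with DESeq2 (-0.24, adjusted p = 0.0149). Without dnFGFR SS replicate 5 it passed with edgeR too (-0.27, adjusted p = 0.0723). The astrocyte marker *Sox9* (-0.35) and the striatal marker *Rgs9* (-0.24) passed with DESeq2 (adjusted p = 0.0883 and 0.0941). With edgeR, *Sox9* passed after removal of GC and length trends with a replicate block (-0.34, adjusted p = 0.0856). The astrocyte markers together had a median of -0.036, with 7 of 10 below 0 and 3 above. At an unadjusted p under 0.05, 2 of them were lower and 1 higher. Microglia markers had a median of -0.12, with 6 of 9 below 0, and 3 lower and 1 higher at that level. Endothelial and mural markers had a median of -0.21, with 9 of 10 below 0 and 6 at an unadjusted p under 0.05, and striatal neuron markers a median of -0.16, with 10 of 10 below 0 and 5 at that level. The markers of neurons had a median of 0.078 and 9 of 13 above 0, of which 4 had an unadjusted p under 0.05. The summed level of the neuron markers was 6864 ± 471 CPM in control SS and 7231 ± 514 CPM in dnFGFR SS mice (SD, n = 5), led by *Snap25*. The part of such differences in tissue makeup was not tested.

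In OS mice *Mbp* and *Mag* had the smallest p. *Mbp* was at 2164 ± 404 CPM in dnFGFR OS against 2788 ± 412 CPM in control OS mice (SD, n = 5), a log2 change of -0.37 ± 0.13 (SE, interval -0.65 to -0.078). *Mag* was at 179.9 ± 24.2 CPM against 217 ± 23.5 CPM (SD), a log2 change of -0.27 ± 0.10 (SE). Neither passed after adjustment, with an adjusted p of 0.655 for both in edgeR. None of the 9 passed the threshold, beside 0.0531% of 16941 genes, and none with DESeq2. At an unadjusted p under 0.05 and lower there were 2 of 9 members and 0 higher, beside 3.93% of all genes lower, 3.1% higher and 7.02% in either direction. No member had groups without overlap, beside 0.702% of genes lower and 0.856% higher. The 9 markers of choroid plexus and ependyma were all below 0, with a median of -0.78 and 1 at an unadjusted p under 0.05, and striatal neuron markers had a median of -0.27, with 9 of 10 below 0, 6 at that level and 3 without overlap between groups. Their part in the values of *Mbp* and *Mag* was not tested. The median of the 9 was -0.13 with 7 below 0, beside 0.00013 over all genes, and *Ermn* (0.043) and *Mal* (0.011) were above 0. Without dnFGFR OS replicate 2 this median was -0.022. Without dnFGFR OS replicate 5, *Mbp* was -0.29 and *Opalin*, at -0.13 with all mice, was -0.28. The genotype comparisons in SS and in OS mice used different mice, but each shares its groups with the housing comparisons.

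Whether the housing change differed between genotypes was tested over the 4 groups together. No member passed, as none of 17445 genes did (0%), and DESeq2 called none of the members. At an unadjusted p under 0.05 there were 0 of 9 members beside 3.41% of all genes. The difference of the changes ran from -0.22 ± 0.20 for *Mbp* to 0.28 ± 0.21 for *Opalin* (SE, n = 20 mice), with a median of -0.00012. The interval for *Opalin* was -0.16 to 0.71 and that for *Mbp* -0.62 to 0.19. Without dnFGFR OS replicate 5 the values were 0.14 for *Opalin* and -0.13 for *Mbp*. Without dnFGFR SS replicate 5 *Opalin* was at 0.43 (unadjusted p = 0.0345, edgeR adjusted p = 0.997).

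**Figure D2:**
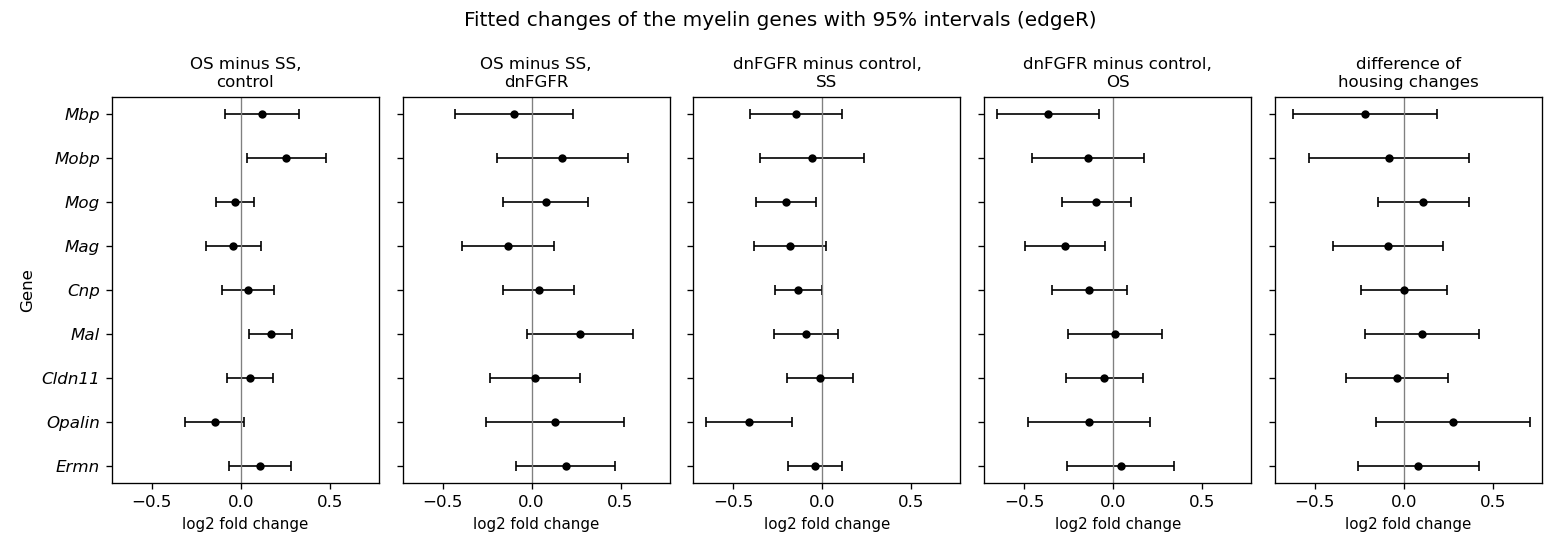
Fitted log2 fold change (x axis) of the 9 genes (rows) in the 4 comparisons and for the difference between the housing changes, with 95% intervals from edgeR (n = 5 mice a group). In SS mice all 9 points of the genotype comparison lie below 0, with *Opalin* lowest at -0.41, and in OS mice *Mbp* is lowest at -0.37.

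The rest of the myelin program was followed in 6 lists of genes. Of 20 further myelin proteins, none passed the threshold with edgeR in any comparison. In SS mice 14 of the 20 were lower in dnFGFR mice, 6 of them at an unadjusted p under 0.05 and none higher at that level (4.51% lower and 4.12% higher over all genes), with a median of -0.069. In OS mice 12 of 20 were lower, with a median of -0.079. *Pllp*, a proteolipid close to *Mal*, had values of -0.33 in SS and -0.28 in OS mice (edgeR adjusted p = 0.308 and 0.643). With OS housing 18 of 20 were higher in control mice and 15 of 20 in dnFGFR mice, with medians of 0.090 and 0.12, and *Anln* (0.24) and *Septin2* (0.24) had the smallest p (edgeR adjusted p = 0.697 and 0.726).

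Of 21 enzymes of myelin lipid synthesis, 1 passed with edgeR. *Sgms1*, a sphingomyelin synthase, was at 44.2, 42.1, 42.1, 43.3 and 39.7 CPM in control SS mice and at 49.2, 50.5, 52.3, 52.9 and 49.4 CPM in control OS mice. All OS mice lay above all SS mice, and the log2 change was 0.27 ± 0.051 (SE, n = 5 against 5, edgeR adjusted p = 0.0944), beside 0.112% of all genes called higher. It did not pass when any one of the 10 mice was left out (the smallest adjusted p was 0.1004 and the largest 0.315), and it is a gene of many cell types besides oligodendrocytes. In dnFGFR mice *Sgms1* was at 48.6, 48.5, 50.1, 38.8 and 42.4 CPM in SS and at 50.1, 49.6, 54.4, 48.6 and 43.3 CPM in OS mice, and did not pass. *Ugt8a*, the enzyme that makes galactocerebroside, had a log2 change of -0.36 ± 0.088 between genotypes in SS mice (SE, edgeR adjusted p = 0.188). It passed with DESeq2 (adjusted p = 0.0147), and with edgeR without control SS replicate 3 (0.0548) or dnFGFR SS replicate 5 (0.0568). In this comparison 8 of the 21 enzymes had an unadjusted p under 0.05, 7 lower and 1 higher, beside 8.63% of all genes (4.51% lower and 4.12% higher). In OS mice *Elovl1*, which elongates very long chain fatty acids, had the smallest p (-0.40, edgeR adjusted p = 0.646). The split of the list was the other way there, with 5 higher and 2 lower at an unadjusted p under 0.05. Over all genes 3.1% were higher and 3.93% lower at that level. Of the 21 enzymes, 10 were above 0 and 11 below between genotypes in OS mice, with a median of -0.049. In dnFGFR mice *Hmgcs1* had the smallest p with OS housing (0.22, edgeR adjusted p = 0.762).

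Of 13 transcription factors of the lineage, *Nkx2-2*, which acts in precursors at the onset of differentiation, had the smallest p in 3 comparisons. It was at 8.45, 9.01, 10.6, 11.4 and 11.5 CPM in control SS mice, at 7.23, 6.39, 7.88, 7.10 and 8.05 CPM in control OS mice, at 5.95, 6.63, 6.48, 7.79 and 7.86 CPM in dnFGFR SS mice and at 7.17, 6.88, 8.27, 6.63 and 8.83 CPM in dnFGFR OS mice. All control SS mice lay above all control OS and all dnFGFR SS mice. The comparisons share the control SS group, so they are not independent. The log2 change was -0.56 ± 0.12 between genotypes in SS mice, -0.48 ± 0.11 for housing in control mice and 0.60 ± 0.16 for the difference of the housing changes (SE). The edgeR adjusted p were 0.110, 0.205 and 0.963. For housing in control mice it passed with DESeq2 (adjusted p = 0.0171). Between genotypes in SS mice it passed under 7 of 10 other settings, with the smallest adjusted p of 0.00215 with DESeq2, and under 3 of the 10 fits that left out 1 mouse. *Sox10*, the factor that drives myelin genes, had the smallest p between genotypes in OS mice (-0.26 ± 0.082, SE, edgeR adjusted p = 0.600), and *Nkx6-2* had the smallest p for housing in dnFGFR mice (-0.34, adjusted p = 0.726 with edgeR). Of the 13, 11 were below 0 between genotypes in SS mice and 8 in OS mice, with medians of -0.15 and -0.062.

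Of 14 genes of precursors, none passed with edgeR. *Lhfpl3* had a log2 change of -0.24 ± 0.060 between genotypes in SS mice (SE, edgeR adjusted p = 0.215) with no overlap between groups, and passed with DESeq2 (adjusted p = 0.0435). *Cspg4*, the NG2 proteoglycan of precursors, had -0.25 ± 0.076 in OS mice (SE, edgeR adjusted p = 0.600), also with no overlap. Groups without overlap were found for 1 of the 14 in each of these comparisons. Over all genes 0.777% were lower without overlap in SS mice and 0.702% in OS mice. *Enpp6*, a gene of newly formed oligodendrocytes, had the smallest p for housing in dnFGFR mice (0.45, adjusted p = 0.726 with edgeR). Medians of the list lay between -0.077 (genotype in SS mice) and 0.0096 (housing in dnFGFR mice) in the 4 comparisons. Of 13 genes of the node of Ranvier and the paranode, where myelin meets the axon, none passed with edgeR either. *Sptbn4*, the spectrin of the node, had -0.35 ± 0.093 for housing in dnFGFR mice with no overlap between groups (SE, edgeR adjusted p = 0.726), and *Nfasc* had -0.14 ± 0.047 between genotypes in SS mice (SE, adjusted p = 0.370 with edgeR). For housing in dnFGFR mice 8 of the 13 were above 0, with a median of 0.017. Only *Sptbn4* had an unadjusted p under 0.05 there, and only it had no overlap, beside 0.696% of all genes lower. Between genotypes in SS mice 9 of the 13 were below 0, with a median of -0.044.

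Of 14 genes for gap junctions, channels and transport in oligodendrocytes, none passed with edgeR. *Kcnj10*, the potassium channel Kir4.1 shared by oligodendrocytes and astrocytes, had -0.33 ± 0.076 in SS mice with no overlap between groups (SE, edgeR adjusted p = 0.170), and passed with DESeq2 (adjusted p = 0.00595). Groups without overlap were found for 1 of the 14 there, beside 0.777% of all genes lower. In SS mice 13 of the 14 were lower in dnFGFR mice, with a median of -0.24, 5 lower and 1 higher at an unadjusted p under 0.05, beside 4.51% lower and 4.12% higher over all genes.

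Between mice, the 9 genes varied more than most genes at or above the mean level of *Opalin*, the least abundant of the 9. After the mean of its group was subtracted from each mouse, the SD of log2 CPM was 0.28 for *Mobp*, 0.26 for *Opalin* and 0.25 for *Mbp*, and 0.13 for *Cnp*, the lowest of the 9. The median SD was 0.18 over all 17445 genes tested and 0.12 over the 6474 genes with a mean level at least that of *Opalin*. All 9 were above the median of these 6474 genes, from the 58.5th percentile for *Cnp* to the 96.9th for *Mobp*. Among all 17445 genes, *Cnp* (30.5th percentile), *Mog* (36.1st), *Cldn11* (44.3rd) and *Mag* (49.7th) were below the median, and the other members above it.

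The same mice were low or high for most of the 9 genes. In dnFGFR OS replicate 2 all 9 genes were below the group mean, by 0.39 on average on the log2 scale, and 8 of 9 were the lowest of the group. In dnFGFR SS replicate 4 all 9 were below, by 0.28 on average, and 8 of 9 were the lowest. These mice held the lowest value of all 20 for 5 and 4 of the genes. All 9 were also below in control OS replicate 5 (-0.18 on average) and dnFGFR SS replicate 1 (-0.15). On the high side, dnFGFR OS replicate 3 (0.20), dnFGFR SS replicate 5 (0.20), control OS replicate 2 (0.18) and control SS replicate 4 (0.084) had all 9 above their group mean. The members took 0.617% of all counts in control OS replicate 2 and 0.314% in dnFGFR SS replicate 4.

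**Figure D3:**
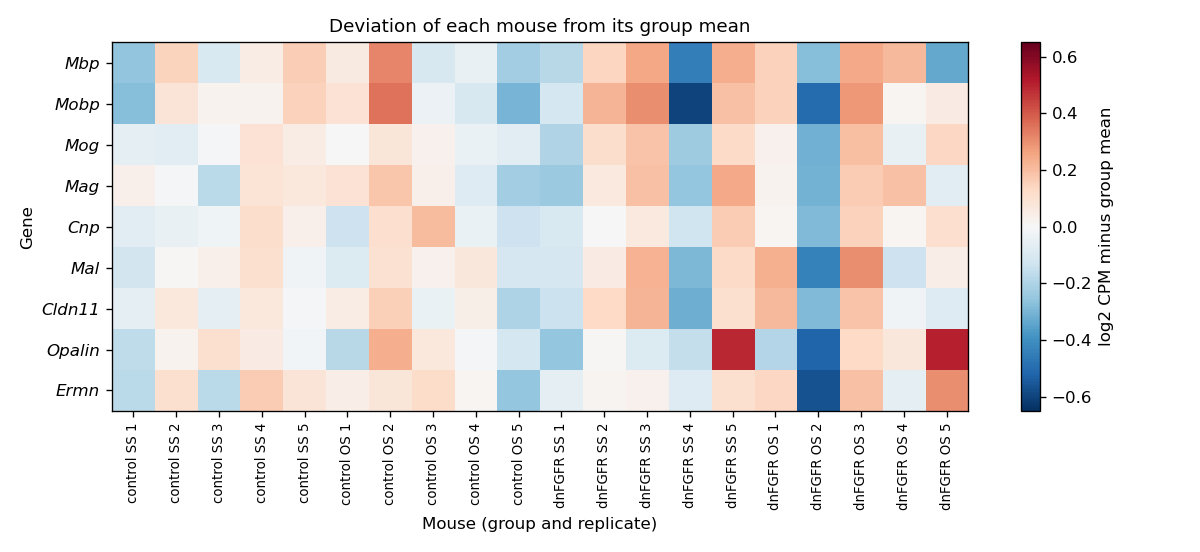
Deviation of each mouse from the mean of its group (colour, log2 CPM, blue below and red above) for the 9 genes (rows) in the 20 mice (columns). The columns of dnFGFR SS replicate 4 and dnFGFR OS replicate 2 are blue for all 9 genes, and the column of dnFGFR OS replicate 5 runs from -0.33 for *Mbp* to 0.51 for *Opalin*.

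Over the 20 mice, with group means subtracted, Pearson's r between pairs of members had a median of 0.73 over 36 pairs, from 0.31 (*Mbp* with *Opalin*) to 0.91 (*Mobp* with *Cldn11*). The points share libraries and their scaling, and no p is given since the genes were chosen as one cell type's. A first axis held 72.7% of the variance of the 9 genes and a second 15.1%. After *Mobp* with *Cldn11*, the pairs most alike were *Mal* with *Cldn11* (0.88) and *Mog* with *Mal* (0.88). *Mbp* with *Cldn11* (0.87) and *Mbp* with *Mobp* (0.86) came next. The r was 0.78 for *Cnp* and *Opalin*, 0.80 for *Cnp* and *Ermn* and 0.69 for *Opalin* and *Ermn*. *Cnp* was closer to *Mog* (0.83) than to either of these. *Opalin* had the lowest median r with the others (0.55) and *Mobp* the highest (0.81). The split of *Mbp* from *Opalin* was carried in part by dnFGFR OS replicate 5, without which the lowest r among the 36 pairs was 0.55 and the median 0.78. In that mouse *Mbp* was 0.33 below and *Opalin* 0.51 above the group mean. The gene with the lowest GC content of the 9, *Ermn* (38.0%), and the next, *Opalin* (45.8%), were the highest above the mean there, and *Mag*, with the highest GC content (57.6%), was 0.068 below. The order did not hold throughout, since *Mbp*, the lowest in that mouse, has a GC content of 51.0%, and *Cnp*, with 54.8%, was 0.11 above the mean. Whether base composition had a part was not tested. Without the pair of lowest mice (dnFGFR SS replicate 4 and dnFGFR OS replicate 2) the median r was 0.56, and it was 0.60 without dnFGFR OS replicate 2 alone.

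**Figure D4:**
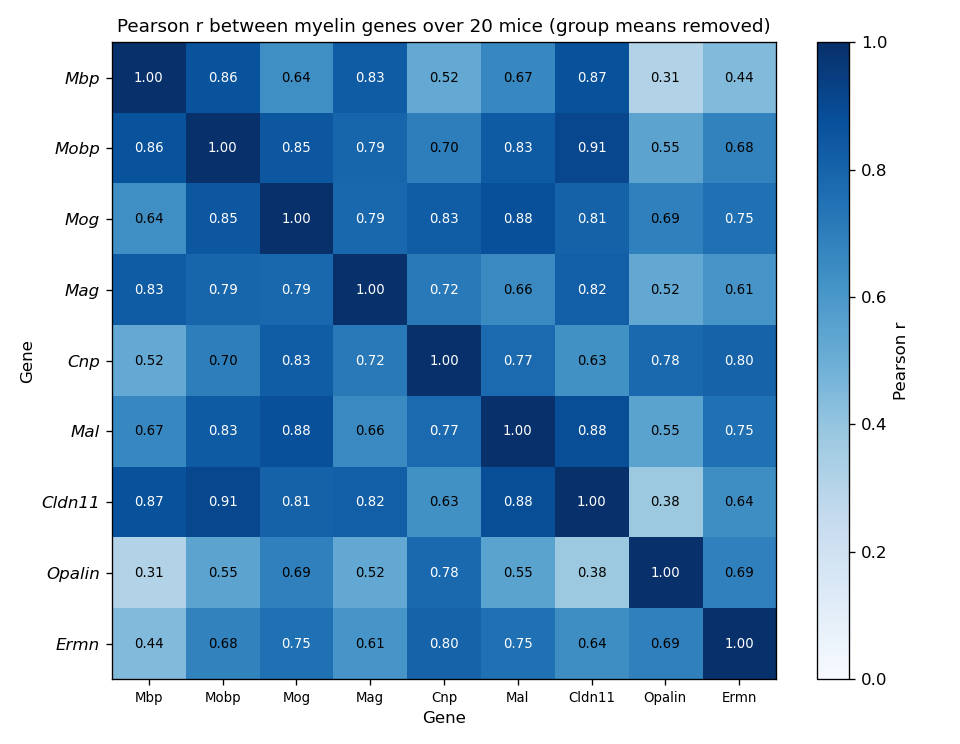
Pearson's r of log2 CPM between each pair of the 9 genes over 20 mice after subtraction of group means (both axes, genes; colour and number, r from 0 to 1). The corner of *Mbp* with *Opalin* (0.31) is the palest and *Mobp* with *Cldn11* (0.91) is the darkest pair.

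Among 15279 other genes with a mean of at least 1 CPM, 124 (0.812%) had an r over 0.8 with the mean of the 9 genes. The most alike was *Ttyh2* (0.94), of a chloride channel family, followed by *Plekhb1* (0.94), *Ccdc153* (0.93), *Col6a3* (0.93), *Trf* (0.92), *Bcas1* (0.92), *Tmbim1* (0.92), *Ccdc170* (0.91), *Tmem212* (0.91) and *Wdr63* (0.91). *Plekhb1*, *Trf* (transferrin) and *Bcas1* are genes of myelin or oligodendrocytes, while *Ccdc153*, *Tmem212* and *Wdr63* are genes of cilia in ependymal cells, which line the ventricles. Among the 5 lowest were *Slc2a3* (-0.92), the neuronal glucose transporter, *Kcnf1* (-0.90), *Stum* (-0.89) and *Parp1* (-0.88). *Ttyh2* lay between 49.3 and 82.6 CPM and *Slc2a3* between 132 and 167 CPM over the mice. An r over 0.5 was found for 8.96% of the 15279 genes and one under -0.5 for 8.60%.

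Taken by list, the median r with the 9 genes was 0.70 for the gap junction and channel genes (11 of 14 over 0.5), 0.67 for the myelin proteins (14 of 20) and 0.50 for the lipid enzymes (10 of 21). It was 0.45 for the transcription factors, where *Myrf* (0.88) was highest and *Nkx2-2* was at 0.17, 0.36 for precursor genes and 0.21 for node and paranode genes. Among other cells it was 0.69 for choroid plexus and ependyma (9 of 9 over 0.5), 0.60 for preoptic and hypothalamic neurons, 0.51 for astrocytes, 0.40 for 3 Schwann cell genes, 0.30 for microglia and 0.23 for endothelial and mural cells. It was -0.10 both for neurons and for striatal neurons. In the 5 comparisons no marker of choroid plexus and ependyma passed with edgeR in the design used throughout, apart from *Clic6* without control OS replicate 5.

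The summed level of these 9 ventricular markers was 145, 423, 63.8, 1109 and 55.8 CPM in control SS mice and 1443, 1975, 749, 1943 and 71.3 CPM in control OS mice. It was 60.8, 69.3, 1621, 48.0 and 773 CPM in dnFGFR SS mice and 250.3, 47.8, 2195, 72.3 and 438 CPM in dnFGFR OS mice. The mice lowest for myelin genes, dnFGFR SS replicate 4 and dnFGFR OS replicate 2, had the lowest sums of all 20, and mice high for myelin genes, such as dnFGFR OS replicate 3 and control OS replicate 2, had the highest. Not all mice followed this, since control OS replicate 4 had the next highest sum with myelin genes on average 0.023 below the group mean on the log2 scale, and control SS replicate 5 had the lowest sum after the 2 low mice with myelin genes 0.055 above. *Ttr*, a choroid plexus gene and the most abundant of the list, ran from 0.209 to 1984 CPM, and *Folr1* had no count in some mice. Markers of preoptic and hypothalamic neurons (13 of 14 with at least 1 CPM, *Six3* the most abundant) summed to 145.9 CPM in dnFGFR OS replicate 2 and 175 CPM in dnFGFR SS replicate 4, against medians of 216 and 203 CPM in their groups. Astrocyte markers, led by *Slc1a2*, summed to 3589 and 3611 CPM in these mice against medians of 4367 and 4115 CPM. The part of the edges of the dissected block in the level of the myelin genes was not tested.

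**Figure D5:**
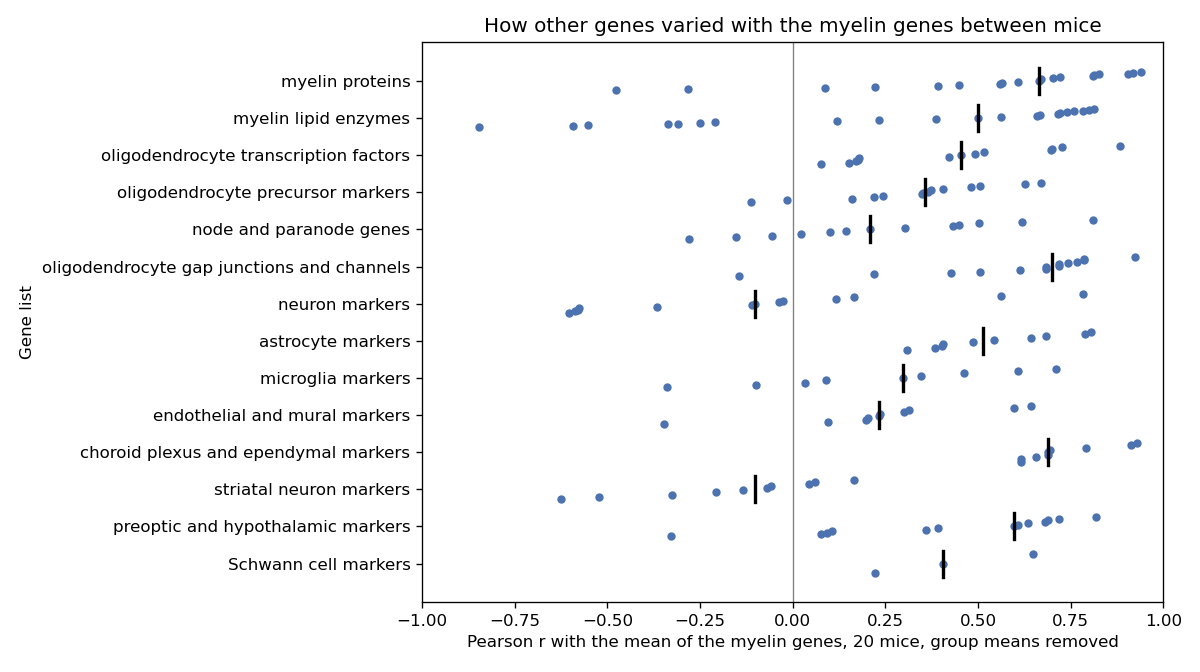
Pearson's r of each gene (points) with the mean of the 9 myelin genes over 20 mice after subtraction of group means (x axis), by gene list (rows), with the median of each list as a bar. All 9 choroid plexus and ependymal markers lie above 0.5, and the medians of the neuron and striatal neuron lists lie at -0.10.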

How the data were processed

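Total RNA of POA blocks was sequenced by the authors' provider as 150 bp paired-end reads, which HISAT2 placed on GRCm38 and Rsubread counted per RefSeq gene. The authors deposited raw counts for 25239 genes, without normalization. Whether counting used strand, and how it treated multi-mapping reads, is not given in the sources used here. The table held 20 more columns that match no described sample and were not used.

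Counts were scaled with TMM and tested with edgeR 4.0.16 (quasi-likelihood, filterByExpr) in R 4.3.3, each comparison on the mice of its own groups, with Benjamini-Hochberg adjustment over all tested genes and a threshold of 0.1, as in the study. DESeq2 1.42.0 and limma 3.58.1 served as alternatives. CPM refers to TMM-scaled library sizes and log2 CPM to a prior count of 2. Gene lengths are those of GENCODE exon unions on GRCm38, and GC content is that of the longest GENCODE transcript of each gene. Both were found for 24715 genes. Intervals are at 95%. Mice were separate animals, and no 2 libraries of the same group agreed within counting noise. Pairs of libraries across groups were not compared in this way.

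The members, the 14 other lists and the motifs were chosen with earlier results of these data known. Named genes are the members, in each list the gene with the smallest p in each comparison, called genes, the 10 most and 5 least alike genes, and the most abundant gene of each list of other cells. Some genes that these rules name are not reported here. Further genes were named after their values were seen. The fitting steps were tested on simulated data.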

Additional observations from a re-analysis of the deposited data

Results flagged for a closer look

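*Opalin* in dnFGFR SS replicate 5 stood at 41.6 CPM, with the nearest mouse of its group at 29.7 CPM. The gap took 0.711 of the range of the group, above Dixon's critical value of 0.71 for 5 mice. It was the only one of 40 groups checked to do so, and about 1 in 20 is flagged by chance. All other members in this mouse were above the group mean as well, by at least 0.10 on the log2 scale.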

How the results depend on the processing

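Of the values of named genes, 1115 of 1170 kept direction and side of the threshold under the alternatives other than leaving out a mouse, and 1319 of 1380 when 1 mouse was left out. No member passed the threshold under any of them except *Opalin* between genotypes in SS mice, where 1 member passed with DESeq2 and without dnFGFR SS replicate 5. Members with an unadjusted p under 0.05 ranged over mice left out from 1 to 3 for housing in control mice, 0 to 2 in dnFGFR mice, 1 to 4 between genotypes in SS mice, 0 to 3 in OS mice and 0 to 1 for the difference of housing changes. Over the other alternatives they ranged from 0 (4 groups in 1 fit, and within dates) to 3 for housing in control mice, 0 to 2 in dnFGFR mice, 2 to 4 between genotypes in SS mice and 1 (limma voom, and the GC and length correction) to 2 in OS mice. Members past the threshold in SS mice thus ranged from 0 to 1 over mice left out. The cause was not tested.

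Changes of sign under alternatives other than leaving out a mouse lay between -0.035 and 0.074. For housing in control mice within sacrifice dates they were *Mog* (0.011) and *Mag* (0.031), and in dnFGFR mice *Mag* (0.0044) after removal of trends on GC content and length. Between genotypes *Cldn11* was at 0.0085 (SS) and 0.016 (OS) with limma voom. In OS mice the GC and length correction gave *Cldn11* 0.011 and *Ermn* -0.019, and with the replicate block *Ermn* -0.035. For the difference of housing changes *Cnp* was at 0.0072 with DESeq2, 0.0073 with RLE factors and 0.047 with limma voom, where *Mobp* was at 0.016 and *Cldn11* at 0.0075. The GC and length correction gave *Mag* 0.033, *Cnp* 0.074 and *Cldn11* 0.041, and with the replicate block 0.031, 0.069 and 0.041. Over mice left out, ranges crossed 0 for *Cldn11* (-0.072 to 0.059), *Mobp* (-0.13 to 0.067), *Ermn* (-0.085 to 0.0013) and *Ncmap* (-0.24 to 0.059) between genotypes in SS mice, and for *Cldn11* (-0.10 to 0.017), *Ermn* (-0.038 to 0.16) and *Mal* (-0.071 to 0.11) in OS mice. They did so for *Cnp* (-0.013 to 0.073) and *Mag* (-0.089 to 0.0090) with housing in control mice, for *Cldn11* (-0.054 to 0.089), *Opalin* (-0.014 to 0.27) and *Kcnj13* (-0.30 to 1.95) in dnFGFR mice, and for the difference of housing changes in *Cldn11* (-0.10 to 0.043), *Cnp* (-0.030 to 0.078) and *Mobp* (-0.20 to 0.035). The median of the members between genotypes in OS mice, -0.13, was -0.062 with limma voom and -0.070 with the GC and length correction, or -0.078 with the block added. For housing, the median of 0.054 in control mice was 0.035 with that correction and block, and the median of 0.080 in dnFGFR mice was 0.17 within dates.

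Replicate numbers did not pair the mice, since at most 2 of 5 same-numbered pairs had a correlation of residuals over 0.1, and at most 3 of 10 mice were most like their own number. With replicate number as a block, *Mal* between genotypes in OS mice was at -0.011 and *Cnp* in the difference of housing changes at 0.00010, and *Sgms1* no longer passed (adjusted p = 0.134), while *Clic6* passed for housing in control mice (0.0659, and 0.0361 with the GC and length correction). All genes past the threshold in OS mice between genotypes were 9 without and 3 with the block.

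Counts over all genes moved more than those of the members. For housing in control mice the 21 genes were 157 with DESeq2, 66 with limma voom, 32 with at least 10 counts in every mouse, 6 at an adjusted p under 0.05, 0 with the 4 groups in 1 fit, 35 and 58 with the GC correction without and with the block, 1 within dates, and 0 to 32 with 1 mouse left out. Between genotypes the 34 genes in SS mice were 223 with DESeq2, 59 with the GC correction and block and 21 to 70 with 1 mouse left out, and the 9 in OS mice were 78 with DESeq2, 27 with limma voom, 22 with the GC correction, 45 with the 4 groups in 1 fit, 5 at 0.05 and 3 to 16 with 1 mouse left out. DESeq2 called 5 genes for housing in dnFGFR mice and 1 for the difference of changes, where edgeR called 0.

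The median r between members was 0.56 without the pair of lowest mice and 0.60 to 0.78 with 1 mouse left out, settings chosen after seeing the data. The lowest count of a member in any mouse was 819, for *Opalin*.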

Other observations

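Within the lipid enzymes, genes stood at both ends of likeness to the 9 myelin genes between mice. *Fdps* (-0.85), *Sqle* (-0.59), *Hmgcs1* (-0.34) and *Idi1* (-0.25), of cholesterol synthesis, had negative r, *Dhcr7* was at 0.12 and *Fasn*, fatty acid synthase, at -0.31, while *Scd1*, a fatty acid desaturase, was at 0.81 and *Ugt8a* at 0.66. Between genotypes in OS mice *Hmgcs1* (0.29), *Sqle* (0.19), *Fdps* (0.21) and *Idi1* (0.20) were above 0 at an unadjusted p under 0.05, and none passed after adjustment (edgeR adjusted p between 0.663 and 0.702). *Elovl1* (-0.40) and *Gltp* (-0.21) were below 0 there. This division of the list was made after the values were seen.

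*Ptgds*, prostaglandin D synthase of oligodendrocytes, leptomeninges and choroid plexus, was above 0 between genotypes in SS mice (log2 change 0.59) and in OS mice (1.13), where 13 and 11 of the 14 genes of its list were below 0, and passed in neither (edgeR adjusted p = 0.263 and 0.496). Its r with the 9 genes was -0.15. *Olig1* (-0.32) and *Olig2* (-0.27), factors that specify the lineage, were below 0 between genotypes in OS mice (edgeR adjusted p = 0.655 and 0.677). Striatal neuron markers, led by *Ppp1r1b*, were below 0 for 10 of 10 genes between genotypes in SS mice and for 9 of 10 in OS mice, with medians of -0.16 and -0.27. With OS housing 10 of 10 were below 0 in control mice (median -0.096, 3 at an unadjusted p under 0.05) and in dnFGFR mice (median -0.20, 2 at that level). None passed with edgeR, while *Rgs9* passed with DESeq2 for housing in control mice (adjusted p = 0.0166), where its groups did not overlap, and between genotypes in SS mice (0.0941). These comparisons share mice.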
